A study of Saccharomyces cerevisiae with 19 samples.

Results

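The comparison set the 2 budding yeast strains made to overexpress PCF11, Pcf11-OE1 and Pcf11-OE2, against a strain whose Pcf11 protein carries 4 altered residues, Pcf11-AARR. Members were taken by strain from the labels, which gave 6 RNA-seq libraries of the overexpression strains (3 of Pcf11-OE1 and 3 of Pcf11-OE2) and 3 libraries of Pcf11-AARR, 9 of the 19 libraries of the series. No wild-type library entered any value below, so each difference is between strains that both depart from wild type. In Pcf11-OE1 and Pcf11-OE2 the gene was overexpressed either from the TEF1 promoter with the GRS1 terminator, called strong, or from the CDC60 promoter with a DIT1 terminator, called weak. The labels do not say which construct belongs to which strain, nor whether the native PCF11 gene was kept. Pcf11-AARR carries the changes Y575A, E577R, E578R and W582A. Every library is labelled Saccharomyces cerevisiae with the laboratory strains S288C and CEN.PK2-1C named together, and cells of all strains were grown in shaken liquid culture for 36 h. Total RNA was extracted and sequenced with a stranded mRNA kit, and the labels call the 3 libraries of each strain biological replicates.

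Pcf11 is an essential scaffold subunit of cleavage factor IA, which binds nascent messenger RNA near its poly(A) site together with Rna14, Rna15 and Clp1 and works with the cleavage and polyadenylation factor (CPF) to cut the transcript and add its tail. Through its N-terminal domain Pcf11 binds the C-terminal tail of RNA polymerase II, and it also takes part in ending transcription, both of messenger RNAs and, beside the Nrd1-Nab3-Sen1 complex, of short non-coding RNAs. Its C-terminal region holds zinc-binding motifs on both sides of the stretch that contacts Clp1.

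The stretch of PCF11 that the Pcf11-AARR changes fall in is shown because it defines the strain that both overexpression strains were set against. It is the unaltered reference (RefSeq, build R64), chrIV:922058-922087, minus strand, and codes for residues 574 to 583 of a 626-residue protein. Capitals mark the 4 codons that the strain alters, and each of them codes for the residue that the labels name.
PCF11 codons 574 to 583: gttTATgatGAAGAAtctggtgaaTGGgtt

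Counts per library ran from 25930079 to 45796931 over 6409 named features, of which 6274 to 6316 had at least 1 count. Levels below are CPM, counts scaled to the size of the library, after TMM scaling. Across features, which are not independent, log2 levels of libraries within a strain correlated at 0.979 to 0.997, Pcf11-OE1 with Pcf11-OE2 libraries at 0.977 to 0.993, and overexpression with Pcf11-AARR libraries at 0.940 to 0.968. The third Pcf11-AARR library stood apart from the other 2 towards the overexpression libraries: it was the Pcf11-AARR library nearest to their mean for 69.5% of the genes that fell and 66.6% of those that rose. Among the overexpression libraries, the third of Pcf11-OE1 and the first of Pcf11-OE2 stood apart together: their deviations from their strain means correlated at 0.759 over 5929 features. Without both of them 1699 features rose and 1648 fell. The overexpression libraries and the Pcf11-AARR libraries were deposited in separate tables, so strain and anything else that differs between the tables cannot be told apart. Mapped reads, deposited for Pcf11-AARR alone, were 49.87, 91.6 and 67.78% in its 3 libraries. Of 5155 features with a standard gene name, 4147 (80.4%) overlap another feature, and the Pcf11-AARR libraries had 1.25 to 1.26 counts per mapped read, so reads were counted on more than 1 feature. In whole cultures, a gene expressed in fewer cells and one expressed at a lower level per cell cannot be told apart.

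PCF11 itself (YDR228C, chrIV:921441-923806, minus strand) was higher in each overexpression strain than in Pcf11-AARR, and far higher in Pcf11-OE1 than in Pcf11-OE2. Its level was 665, 619 and 607 CPM in the Pcf11-OE1 libraries and 95.6, 72.3 and 76.7 CPM in the Pcf11-OE2 libraries, against 22.1, 24.1 and 21.8 CPM in the Pcf11-AARR libraries. All 6 overexpression libraries lay above all 3 Pcf11-AARR libraries, and the 3 strains did not overlap with each other. The mean was 630.4 ± 30.7 CPM in Pcf11-OE1, 81.5 ± 12.4 CPM in Pcf11-OE2 and 22.7 ± 1.23 CPM in Pcf11-AARR (SD, n = 3 libraries each). The log2 fold change of both overexpression strains over Pcf11-AARR was 3.32 ± 0.126 (SE; edgeR quasi-likelihood test, adjusted p = 8.52e-07), made of 4.80 in Pcf11-OE1 (27.8-fold, adjusted p = 7.39e-08) and 1.85 in Pcf11-OE2 (3.6-fold, adjusted p = 2.94e-05). An exact two-sided permutation test over the 6 and 3 libraries gave p = 0.0238, the smallest that its 84 arrangements allow. Pcf11-OE1 exceeded Pcf11-OE2 by 2.95 ± 0.13 on the log2 scale (7.73-fold, edgeR adjusted p = 3.76e-06).

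SIR4, a silencing protein gene that lies on the opposite strand beside PCF11 and shares 666 bases with it (28.1% of PCF11 and 14.7% of SIR4), moved with it. Its level was 144, 152 and 143 CPM in Pcf11-OE1 and 81.4, 71.8 and 69.3 CPM in Pcf11-OE2, against 48.2, 51.5 and 49.3 CPM in Pcf11-AARR. The strains stood in the same order as for PCF11 with no overlap, at a log2 fold change of 1.07 for both overexpression strains together (edgeR adjusted p = 2.82e-05). Whether reads of PCF11 were also counted on SIR4 was not tested. Of the 7 genes listed for the constructs, the 2 that rose were PCF11 and SIR4, and the genes whose own promoter or terminator was used were not called. TEF1, which codes for translation elongation factor eEF1A, had a log2 fold change of 0.05 (adjusted p = 0.759), GRS1, for glycyl-tRNA synthetase, -0.03 (0.814), CDC60, for leucyl-tRNA synthetase, 0.35 (0.0711) and DIT1, for a spore wall enzyme, 0.12 (0.416) in edgeR. In Pcf11-OE1 alone CDC60 was called higher (0.60, edgeR adjusted p = 0.0166).

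**Figure D1:**
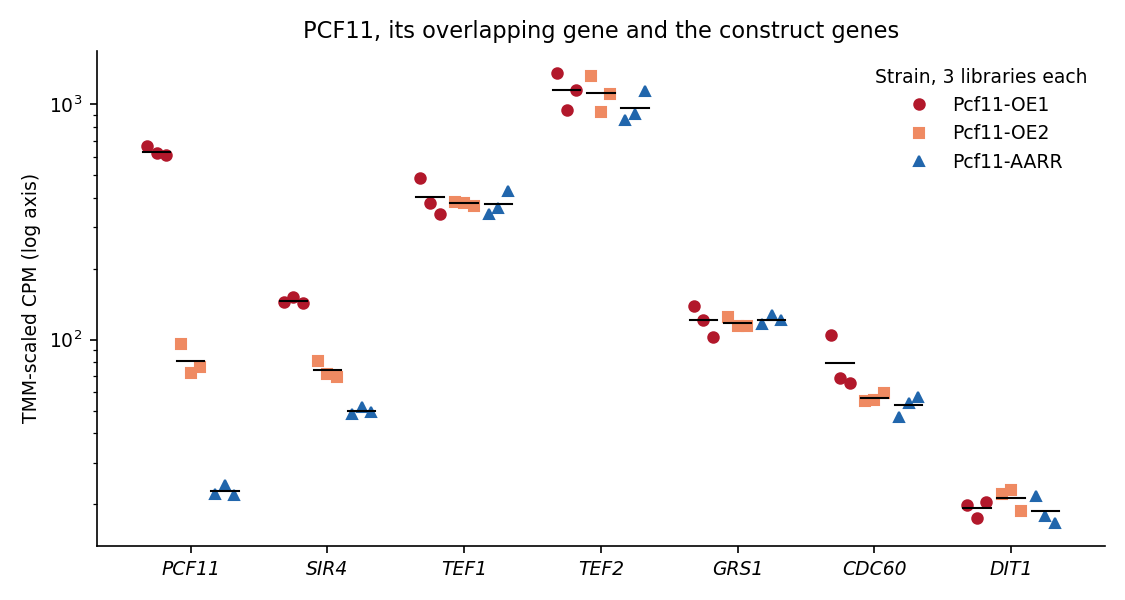
Levels of PCF11, SIR4 and the construct genes in every library, in CPM on a log axis, with Pcf11-OE1 and Pcf11-OE2 left of Pcf11-AARR (points are libraries, bars strain means). PCF11 lies at 607 to 665 CPM in Pcf11-OE1, 72.3 to 95.6 CPM in Pcf11-OE2 and 21.8 to 24.1 CPM in Pcf11-AARR.

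Across all genes, differences were many and mostly under 2-fold. Of 6106 features tested, 1648 (27.0%) rose and 1563 (25.6%) fell in the overexpression strains relative to Pcf11-AARR, 3211 or 52.6% in all (edgeR, adjusted p at 0.05). At least a 2-fold change was found for 274 (4.49%) that rose and 378 (6.19%) that fell. All 6 overexpression libraries lay outside the range of the 3 Pcf11-AARR libraries for 2781 features (45.5%), above it for 1497 (24.5%) and below it for 1284 (21.0%). Pcf11-OE1 alone differed from Pcf11-AARR in 2833 features (46.4%), 1485 higher (24.3%) and 1348 lower (22.1%). Pcf11-OE2 alone differed in 2742 (44.9%), 1415 higher (23.2%) and 1327 lower (21.7%). These 2 comparisons use the same Pcf11-AARR libraries. Without the second Pcf11-AARR library the number that rose was 1071, with 965 higher in Pcf11-OE1 alone and 874 higher in Pcf11-OE2 alone. Without the third, 1475 rose and 1630 fell. The median log2 fold change over all features was 0.01, so the lists below can be read against a centre near 0. Their counts are to be read against the 27.0% of all features that rose and the 25.6% that fell. By feature length it ran from -0.16 in the shortest features (51 to 945 bases) to 0.11 in the longest (2510 bases and over), and the part of length in the gene groups below was not tested.

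YAT1, which codes for a mitochondrial carnitine acetyltransferase and lies on chromosome I, had the highest ratio after PCF11 among the genes that the naming rule admits. That rule asks for no overlap between the overexpression and the Pcf11-AARR libraries, so the separation of the genes at both ends was set by it. YAT1 stood at 1553, 1823 and 2594 CPM in Pcf11-OE1 and 1431, 684 and 955 CPM in Pcf11-OE2, against 158, 166 and 195 CPM in Pcf11-AARR. Its log2 fold change was 3.04 ± 0.273 (SE; edgeR adjusted p = 4.64e-05). YAT1 shares 574 bases with YAR035C-A on the other strand, whose log2 fold change was 2.54. TIR4, a cell wall mannoprotein gene known for expression without oxygen, gave 38.1, 42.0 and 37.7 CPM in Pcf11-OE1 and 45.4, 39.9 and 44.8 CPM in Pcf11-OE2, against 5.05, 7.08 and 8.60 CPM in Pcf11-AARR. The log2 fold change of TIR4 was 2.57 ± 0.16 (edgeR adjusted p = 1.21e-05). TIR2, which shares 459 bases with it on the other strand, had a log2 fold change of 1.62. EDC1, whose product activates mRNA decapping, was at 48.0, 52.1 and 42.4 CPM in Pcf11-OE1 and 49.1, 59.1 and 48.5 CPM in Pcf11-OE2, against 10.2, 11.5 and 11.5 CPM in Pcf11-AARR. Both strains sat at one level here, 2.17 ± 0.116 above Pcf11-AARR on the log2 scale (edgeR adjusted p = 4.9e-06).

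The other genes at the upper end stood apart by the same rule. LSR1, the U2 spliceosomal RNA, ranged from 163 to 278 CPM with a median of 207 CPM in the overexpression libraries, against 38.2 to 48.8 CPM in Pcf11-AARR (log2 fold change 2.28). FRE7, a putative ferric reductase gene, reached 61.0 to 90.9 CPM in the overexpression libraries and 16.7 to 20.6 CPM in Pcf11-AARR (2.04). TRS23, for a subunit of the TRAPP vesicle tethering complex, held 164 to 188 CPM in the overexpression libraries and 43.8 to 52.9 CPM in Pcf11-AARR (1.88). Of all 12 genes at this end TRS23 had the smallest standard error, 0.092. The high-affinity glucose transporter genes HXT6 and HXT7 are near-identical neighbours whose reads the counting may have split, and their log2 fold changes were 1.98 and 1.84. TDA8, on chromosome I, and HPF1, a cell wall mannoprotein gene, followed at 1.89 and 1.78. AAR2, for a spliceosome assembly factor, shares 157 bases with the Hsp70 gene SSA3, and both were high and low in the same overexpression libraries: AAR2 ranged from 129 to 480 CPM and SSA3 from 2915 to 10940 CPM in them, against 69.2 to 99.1 CPM and 1608 to 2364 CPM in Pcf11-AARR.

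Among the genes that fell, CDA1, for a chitin deacetylase of the spore wall, had 83.4, 80.5 and 137 CPM in Pcf11-OE1 and 166, 80.1 and 120 CPM in Pcf11-OE2, against 1409, 1007 and 564 CPM in Pcf11-AARR. The log2 fold change was -3.17 ± 0.3 (edgeR adjusted p = 5.65e-05), with the third Pcf11-AARR library nearest to the overexpression libraries. CDA1 shares 607 bases (43.3% of its length) with YLR307C-A on the other strand. That feature had a mean of 130 CPM in the overexpression libraries and 1260 CPM in Pcf11-AARR (-3.29). Whether the same reads were counted on both was not tested. ZEO1, for a plasma membrane protein of the cell wall integrity pathway, gave 1643, 1150 and 2059 CPM in Pcf11-OE1 and 1768, 1217 and 1398 CPM in Pcf11-OE2, against 13050, 13320 and 6189 CPM in Pcf11-AARR (-2.82 ± 0.263, edgeR adjusted p = 5.25e-05). Its neighbour SHR5, for a subunit of the Ras palmitoyltransferase, shares 34 bases with ZEO1 on the same strand and fell by 2.32 on the log2 scale. The same library of Pcf11-AARR was the lowest of the 3 for both.

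MDH2, for the cytosolic malate dehydrogenase of the glyoxylate cycle, stood at 101, 164 and 213 CPM in Pcf11-OE1 and 209, 126 and 180 CPM in Pcf11-OE2, against 851, 700 and 875 CPM in Pcf11-AARR. Here all 3 Pcf11-AARR libraries were alike and far above the others (log2 fold change -2.29 ± 0.218, edgeR adjusted p = 5.82e-05). The remaining genes at the lower end were ARC35, for a subunit of the actin-nucleating Arp2/3 complex (-2.29), UPS2, for a mitochondrial phospholipid transfer protein (-2.18), SRD1, named for ribosomal RNA processing (-2.18), PHO89, for a sodium-phosphate cotransporter (-2.16), INO1 (-2.16) and TPM2, for the minor tropomyosin (-2.10). UPS2 shares 322 bases with the ribosomal protein gene RPS31 on the other strand, which also fell. ARC35 shares 256 bases with EGO4 on the other strand and 98 with MRPS12 on its own, whose log2 fold changes were -2.26 and 0.75. Whether reads were counted on both genes of such a pair was not tested. The mitochondrial features AI1 and 15S_RRNA, a COX1 intron product and the small ribosomal RNA, also belong to this end, at -5.00 and -2.68. AI1 had 0.607 to 0.986 CPM in the overexpression libraries and 4.92 to 59.1 CPM in Pcf11-AARR, with the upper value in the third library. Without that library its log2 fold change was -3.07 (edgeR adjusted p = 1.99e-05) and its Pcf11-AARR mean 6.21 CPM, below the 10 CPM that the naming rule asks for.

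**Figure D2:**
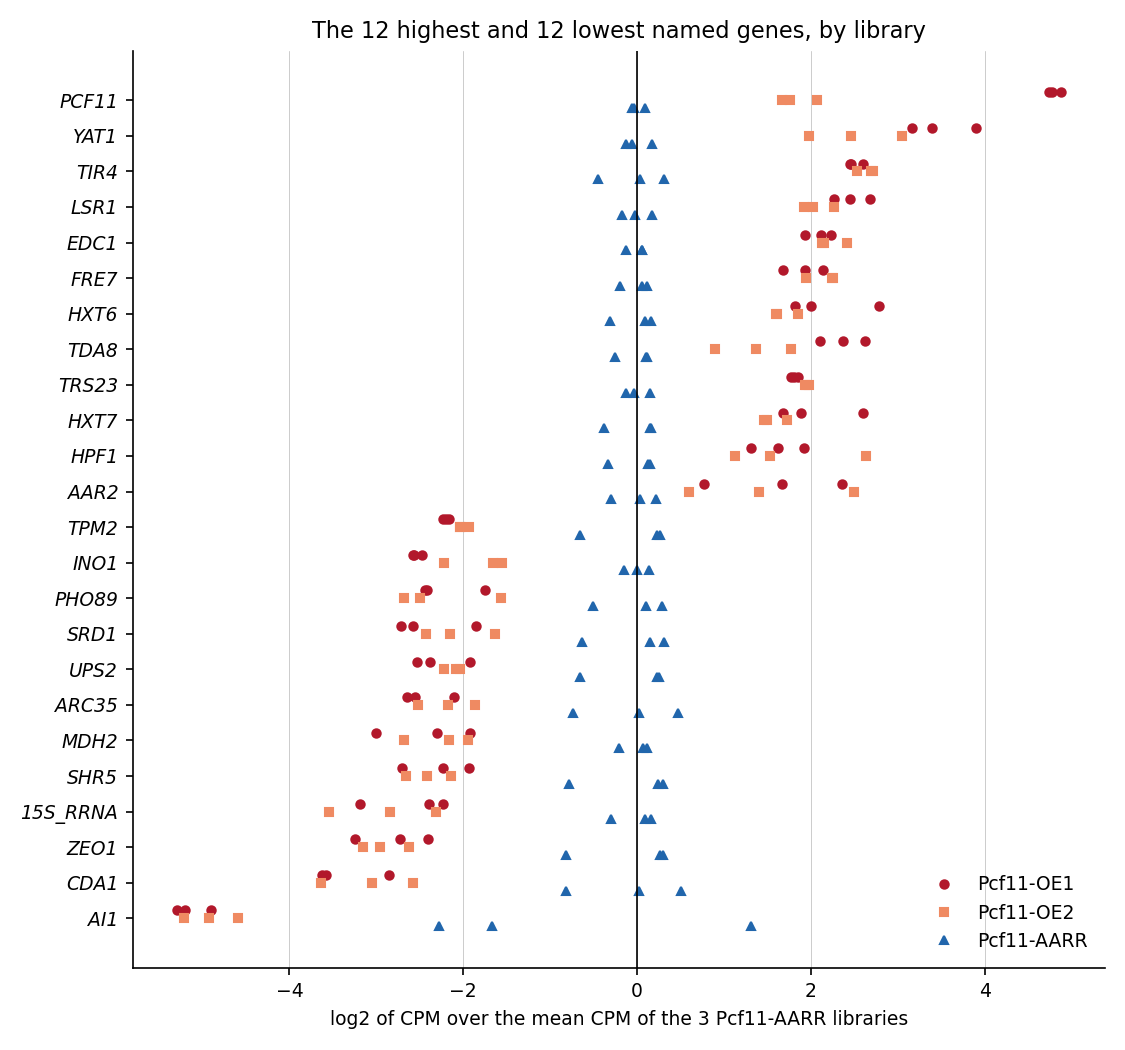
The 12 highest and 12 lowest named genes: log2 of the level in each library over the mean of the 3 Pcf11-AARR libraries, 1 point for each library, with Pcf11-OE1 and Pcf11-OE2 above Pcf11-AARR in each line. The fitted log2 fold changes run from 3.32 for PCF11 to -5.00 for AI1 (-3.07 without the third Pcf11-AARR library), and the 2 overexpression strains stand apart for PCF11 but near each other for EDC1 and TRS23.

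The genes that code for the 3'-end processing and termination machinery changed in both directions, with the termination factors mostly higher. PCF11, whose overexpression was engineered, counts as a rise on both the cleavage factor and the termination list. Of the 5 cleavage factor genes, 3 rose and 1 fell with a median of 0.32: PCF11, the RNA-binding protein genes HRP1 (0.75) and RNA15 (0.32) rose, CLP1 (-0.22) fell, and RNA14 did not pass (0.10, edgeR adjusted p = 0.339). CLP1 is a call at the edge, with an edgeR adjusted p of 0.0333, and it was lost without the second or the third Pcf11-AARR library (0.0658 and 0.0537) and without the third library of Pcf11-OE1 (0.0597) or of Pcf11-OE2 (0.067). Of 15 CPF genes, 5 rose and 1 fell with a median of 0.12. CFT2, a homologue of the human CPSF100 subunit, had 157 to 170 CPM in the overexpression libraries and 89.5 to 110 CPM in Pcf11-AARR (0.72, edgeR adjusted p = 0.000175). REF2 (0.64) and PTI1 (0.60), both of the APT module, and MPE1 (0.26) rose too, and YTH1 fell (-0.86) with 81.6% of its length overlapped by other features. PTA1, a CPF subunit gene on chromosome I, rose as well (0.89), but its Pcf11-OE2 libraries (85.2, 61.5 and 61.3 CPM) overlapped with Pcf11-AARR (47.2, 56.2 and 65.7 CPM).

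Of the 7 genes on the termination list, which holds PCF11 again, 5 rose and 1 fell with a median of 0.54. NAB3, for the RNA-binding partner of Nrd1, stood at 1106, 1039 and 989 CPM in Pcf11-OE1 and 1128, 1193 and 1259 CPM in Pcf11-OE2, against 489, 551 and 589 CPM in Pcf11-AARR. Every overexpression library lay above every Pcf11-AARR library (log2 fold change 1.04 ± 0.106, edgeR adjusted p = 7.1e-05), and it was no higher in Pcf11-OE1 than in Pcf11-OE2. SEN1, for the helicase of the complex, was at 106 to 130 CPM in the overexpression libraries and 63.4 to 80.9 CPM in Pcf11-AARR (0.71). NRD1 (0.54) and RAT1, for the nuclear 5'-3' exonuclease of torpedo termination (0.52), rose, and RAI1, for the partner of Rat1, fell (-0.47). Against this, 8 of 19 TRAMP and nuclear exosome genes fell and 3 rose (median -0.18), AIR1 among those that fell (-0.93), and 9 of the 19 are overlapped over more than 50% of their length. RNA polymerase II subunit and tail enzyme genes gave 8 rises and 10 falls of 27 (median -0.13).

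Genes of the cytosolic ribosome were lower in both overexpression strains. Of 138 ribosomal protein genes, 89 fell and 3 rose, with a median of -0.65 beside 0.01 over all features, and 70 lay below and 3 above the whole Pcf11-AARR range. Their share of all counts was 1.74, 1.25 and 1.23% in Pcf11-OE1 and 1.34, 1.48 and 1.43% in Pcf11-OE2, against 3.07, 3.02 and 2.18% in Pcf11-AARR. The Pcf11-AARR libraries were all higher, the third least so, and without that library 85 genes fell and 3 rose (median -0.74). RPL20B, for a large-subunit protein, gave 69.3 to 104 CPM with a median of 85.6 CPM in the overexpression libraries, against 392, 383 and 208 CPM in Pcf11-AARR (log2 fold change -1.93, edgeR adjusted p = 6.79e-05). RPS31, which makes a fusion of ubiquitin and a small-subunit protein, fell by 2.23 but is overlapped over 70.2% of its length. RPS7B rose, with 52.4 to 82.9 CPM in the overexpression libraries and 19.2 to 29.3 CPM in Pcf11-AARR (1.35, edgeR adjusted p = 0.000232). RPL8A also rose (0.84), a call that ended without the first or the second Pcf11-AARR library (edgeR adjusted p = 0.129 and 0.0916). Many of these genes exist as near-identical pairs, between which the counting may split reads.

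By their medians, other genes of ribosome production moved less. Among 20 RNA polymerase I and III subunit genes, 9 fell and 4 rose (median -0.32). RPC11 (-1.77, overlapped over 78.1% of its length), RPC17 (-1.60) and RPC10 (-0.96) fell, and RPA190, for the largest polymerase I subunit, rose by 0.61. Of the ribosome biogenesis genes 18 fell, 6 rose and 81 were not called (median -0.10), shares below the 25.6% and 27.0% of all features. By library the biogenesis median ranged from -0.55 to 0.35 in the overexpression libraries, and 8 fell without the second Pcf11-AARR library. Without the third library of Pcf11-OE1 and the first of Pcf11-OE2, 17 rose and 19 fell. Mitochondrial ribosomal protein genes gave 21 rises and 14 falls of 71 (median 0.13), and without the third Pcf11-AARR library 15 rises and 20 falls. Translation factor genes gave 7 rises and 5 falls of 38. The proteasome list had 6 rises and 9 falls of 35.

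RNAs that carry no regular poly(A) tail moved in groups of their own, in lists chosen after their values were seen and given as a description. The ribosomal RNA features took 6.95, 5.74 and 5.5% of counts in Pcf11-OE1 and 5.77, 5.77 and 6.03% in Pcf11-OE2, against 1.86, 1.97 and 4.87% in Pcf11-AARR. The overexpression libraries were all higher, though the third Pcf11-AARR library came close. Of 14 ribosomal RNA features, mature RNAs and the precursor units RDN37-1 and RDN37-2 that span them, 13 rose (median 1.32), of 8 spacers 7 rose (2.76) and of 5 spliceosomal RNAs 4 rose (1.56). All but 1 of the 14 and all 8 spacers are overlapped over more than 50% of their length, so the same reads were counted on several of them and their shares of counts hold such reads more than once. The 3 counts were equal without the third Pcf11-AARR library. Of 26 features of the mitochondrial genome 13 were tested, and all 13 fell (median -2.68; 12 without that library). They rest on few reads: 347 to 679 counts per library in the overexpression strains and 1334 to 4797 in Pcf11-AARR. The filter on low counts can admit a feature through Pcf11-AARR alone, so their common direction is in part set by it. COX1, for instance, had 0.0986 to 0.224 CPM in the overexpression libraries and 0.716 to 3.17 CPM in Pcf11-AARR. AI1 shares 169 bases with each of COX1, AI2, AI3, AI4 and AI5_ALPHA, so their counts are not independent. Small nucleolar RNAs, a list of 76 of which 62 were tested, gave 26 rises and 6 falls (median 0.13), and without the third Pcf11-AARR library 19 and 11. How far removal of untailed RNA differed between library preparations was not tested.

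**Figure D3:**
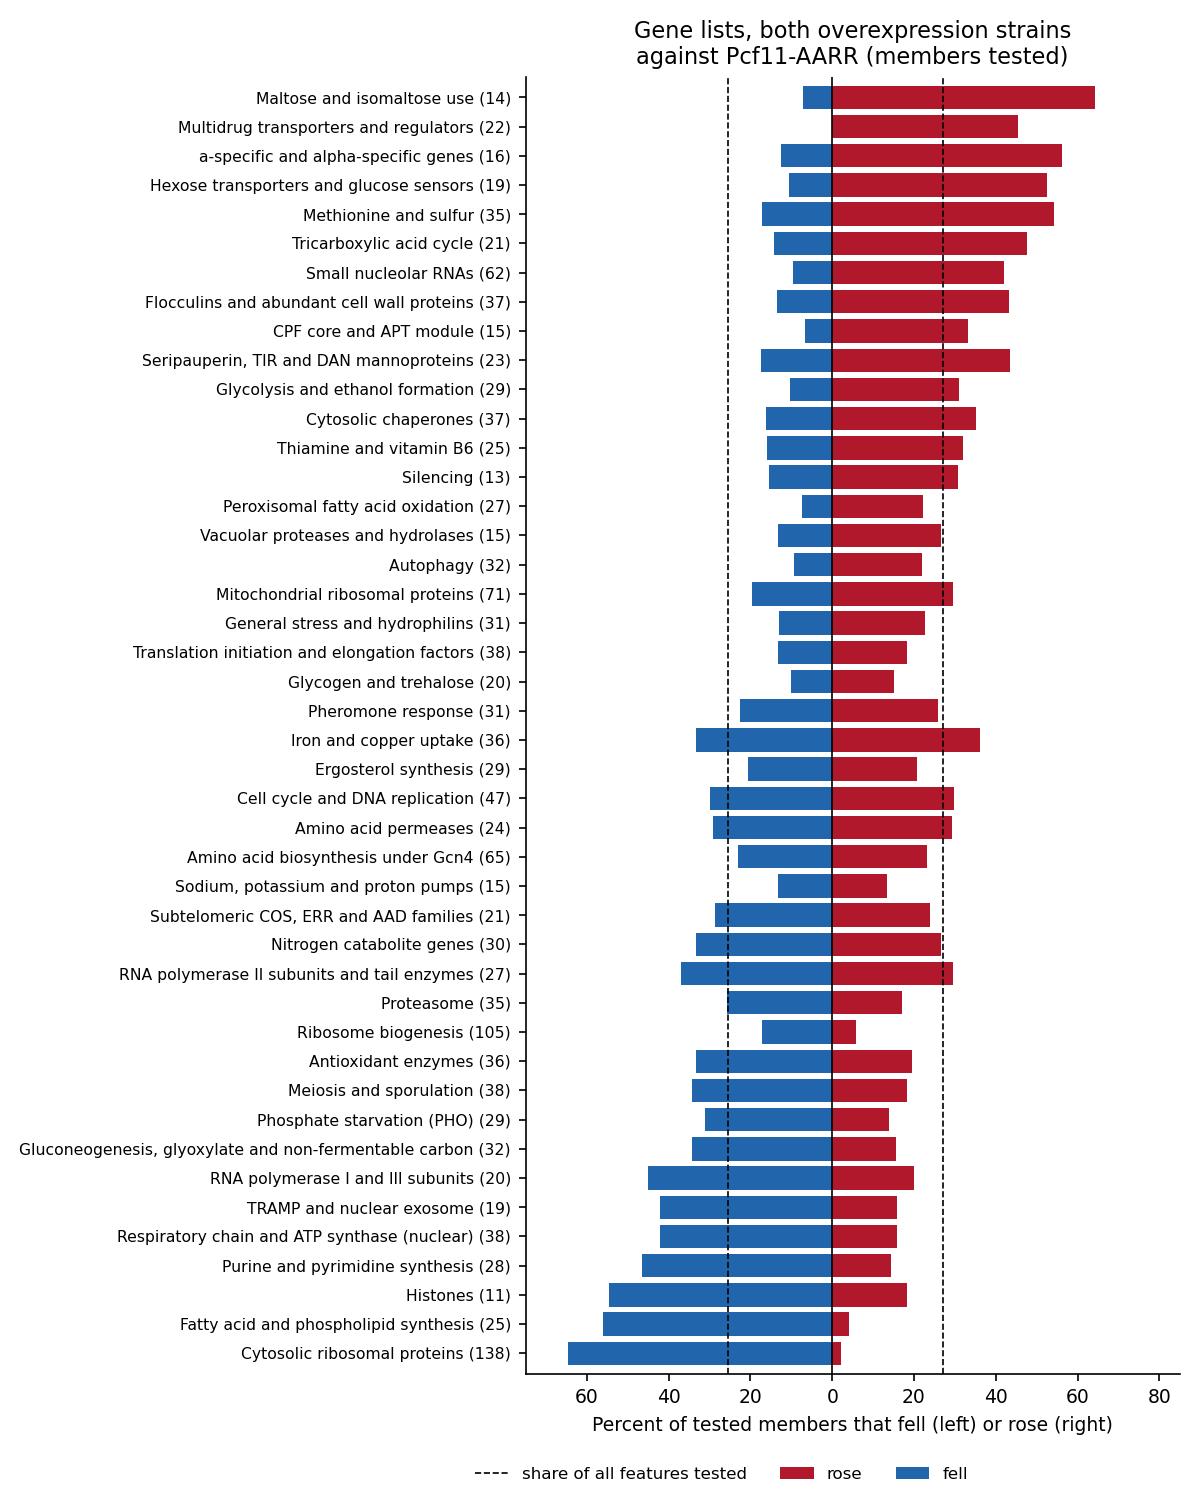
Percent of tested members of each gene list that rose (right) or fell (left) in both overexpression strains against Pcf11-AARR, for lists with at least 11 tested members (number in brackets). Dashed lines mark the shares of all features tested, 27.0% and 25.6%, and among these lists, which leave out those chosen after the values were seen, cytosolic ribosomal proteins lie at one end and maltose genes at the other.

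Genes for the use of maltose and for taking up glucose were more often higher than lower in the overexpression strains, and galactose genes were not. Of 14 maltose and isomaltose genes 9 rose and 1 fell (median 0.82), and 9 lay above the whole Pcf11-AARR range, beside 24.5% of all features. MAL31, a maltose permease gene, gave 664, 561 and 774 CPM in Pcf11-OE1 and 770, 783 and 1058 CPM in Pcf11-OE2, against 262, 325 and 345 CPM in Pcf11-AARR. All overexpression libraries were higher, and the 2 overexpression strains overlapped with each other (log2 fold change 1.29 ± 0.16, edgeR adjusted p = 0.000179). The maltase genes MAL32 (1.10) and MAL12 (1.07) are near-identical copies, so their counts are not independent. The activator genes MAL13 and MAL33 had log2 fold changes of -0.09 and -0.04 and were not called (edgeR adjusted p = 0.584 and 0.789), and the isomaltase gene IMA5 fell (-0.96). Of 19 hexose transporter and glucose sensor genes, 10 rose and 2 fell (median 0.32). Galactose genes gave 2 rises and 3 falls of 9.

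Genes of gluconeogenesis and the glyoxylate cycle, which yeast needs to grow on ethanol or acetate, fell more often than they rose. Of 32 genes on that list 11 fell (34.4%, beside 25.6% of all features), 5 rose (15.6%, beside 27.0%) and 16 were not called (median -0.36). In this list 2 overexpression libraries stood apart. The list median was 0.04 in the third library of Pcf11-OE1 and 0.11 in the first of Pcf11-OE2, against -0.66 to -0.41 in the other 4 overexpression libraries. Without these 2 libraries, left out after the values were seen, 21 fell and 4 rose (median -0.51). SFC1, for the mitochondrial succinate-fumarate carrier, had 61.1 to 158 CPM with a median of 126 CPM in the overexpression libraries, against 417, 382 and 414 CPM in Pcf11-AARR (log2 fold change -1.77, edgeR adjusted p = 0.000123). The glyoxylate enzyme gene ICL1 (-1.29) and the gluconeogenic enzyme genes FBP1 (-1.14) and PCK1 (-0.995) fell with it. ATO2, for a putative ammonium transporter (1.67), and SIP4, for an activator of gluconeogenic genes (1.16), rose, as did YAT1. SIP4 was at 106 to 134 CPM in the overexpression libraries and 51.4 to 60.6 CPM in Pcf11-AARR.

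Glycolysis and ethanol formation gave 9 rises (31.0%, beside 27.0% of all features) and 3 falls of 29 (median 0.18). TDH3 was at 1.37, a value whose call ended without the first or the second Pcf11-AARR library (edgeR adjusted p = 0.0844 and 0.0711). Of 21 tricarboxylic acid cycle genes 10 rose and 3 fell (median 0.25), 5 rising without the first Pcf11-AARR library. Of 38 nuclear genes of the respiratory chain and ATP synthase 16 fell and 6 rose (median -0.30), and 11 of the 38 are overlapped over more than 50% of their length. Without the first Pcf11-AARR library 10 of these fell. Glycogen and trehalose genes gave 3 rises and 2 falls of 20. The general stress list gave 7 rises and 4 falls of 31. The same 2 overexpression libraries stood apart in both lists, at medians of 0.22 and 0.43 for glycogen and 0.55 and 0.57 for stress, and without them glycogen gave 2 rises and 6 falls and stress 6 and 10. In the stress list the hydrophilin gene SIP18 was high in the overexpression strains (4132 to 10380 CPM against 1774 to 2294 CPM in Pcf11-AARR, log2 fold change 1.86) and HOR7 was low (386 to 616 CPM against 2014 to 4264 CPM, -2.67).

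Fatty acid and phospholipid genes were lower as a group: 14 of 25 fell and 1 rose (median -0.33), and without the third Pcf11-AARR library 13 fell. Many of them are targets of the Ino2-Ino4 activator, which binds the element CATGTG, and of its repressor Opi1. INO1, for inositol-3-phosphate synthase, the first enzyme of inositol synthesis, stood at 146, 157 and 148 CPM in Pcf11-OE1 and 188, 278 and 298 CPM in Pcf11-OE2, against 872, 785 and 961 CPM in Pcf11-AARR. The joint log2 fold change was -2.16 ± 0.137 (edgeR adjusted p = 1.21e-05). The 3 strains did not overlap, with Pcf11-OE1 lowest, but its difference from Pcf11-OE2 was not called (-0.76, edgeR adjusted p = 0.0683). The inositol transporter gene ITR1 (179 to 317 CPM in the overexpression libraries and 541 to 589 CPM in Pcf11-AARR, -1.201) and the phosphatidylserine synthase gene CHO1 (69.5 to 86.7 CPM against 138 to 155 CPM, -0.85) fell as well. OPI1 itself fell (-0.67), while INO2 (0.29) and INO4 (-0.23) were not called (edgeR adjusted p = 0.0565 and 0.108). The gene that rose was ELO1, for a fatty acid elongase, and its call was lost without the second or the third Pcf11-AARR library (edgeR adjusted p = 0.114 and 0.0645).

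CATGTG or its reverse complement CACATG was searched on both strands in the 300 bases before the start codon (RefSeq, build R64). It was found before 416 of 5897 tested genes (7.05%), before 14 of the 25 listed lipid genes (56.0%), before 10 of the 14 that fell (71.4%) and before 4 of the 11 that did not (36.4%). Many listed genes are targets of Ino2-Ino4, so the choice of list bears on its share above that of all genes. ACC1, FAS1, FAA1 and OPI1 fell without a match, and ELO2, INO2, INO4 and CKI1 had a match and were not called. A match is a description of these windows and not a bound site, and whether the element bears on the falls was not tested. The stretches below, all on the minus strand, are shown since INO1, ITR1 and CHO1 had the lowest log2 fold changes of the listed lipid genes, with the element in capitals: INO1 at chrX:136159-136188 and chrX:136094-136123, ITR1 at chrIV:1445732-1445761 and chrIV:1445671-1445700, and CHO1 at chrV:208616-208645.
INO1 site 1: ggctaaatgcggCATGTGaaaagtattgtc
INO1 site 2: acttatttaattCACATGgagcagagaaag
ITR1 site 1: ttctgttctcttCACATGcgttaggtatag
ITR1 site 2: ccttccccaccgCATGTGaaaaaagctcga
CHO1 site: cctttgagctttCACATGgacccatctaaa

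**Figure D4:**
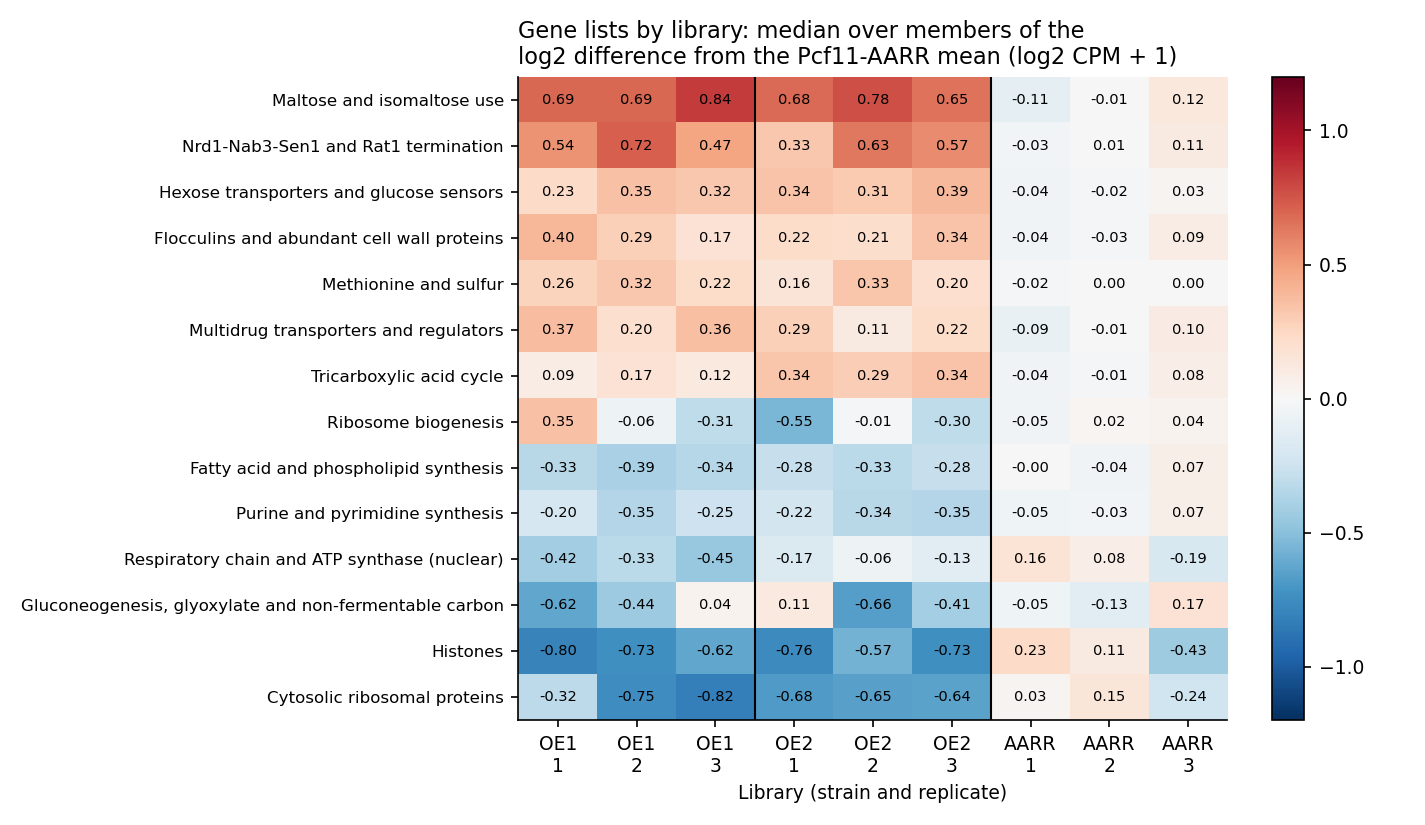
Median over the members of selected lists of the log2 difference of each library from the Pcf11-AARR mean, with the 6 overexpression libraries left of the 3 Pcf11-AARR libraries. Cytosolic ribosomal proteins run from -0.82 to -0.32 in the overexpression libraries and from -0.24 to 0.15 in Pcf11-AARR, and maltose genes from 0.65 to 0.84 and from -0.11 to 0.12.

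Genes of the cell surface were more often higher than lower. Of 37 flocculin and abundant cell wall protein genes, 16 rose and 5 fell (median 0.37). SED1, for the major wall protein of resting cells, gave 4724, 3889 and 4226 CPM in Pcf11-OE1 and 6036, 4126 and 4991 CPM in Pcf11-OE2, against 1632, 1805 and 1996 CPM in Pcf11-AARR. The groups were far apart (log2 fold change 1.36 ± 0.162, edgeR adjusted p = 0.000141). FLO11, the adhesin gene of filamentous growth, was at 185 to 300 CPM in the overexpression libraries and 87.1 to 95.0 CPM in Pcf11-AARR (1.25), and HSP150 rose by 1.44. The flocculin genes FLO9 (1.65, on chromosome I) and FLO5 (1.55) are close copies whose reads may be shared. UTR2, for a chitin transglycosylase, fell (-1.95). Of 34 seripauperin, TIR and DAN mannoprotein genes, close families near chromosome ends, 23 could be tested and 10 rose and 4 fell (median 0.42).

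Genes of sulfur use and of drug export were also more often higher than lower. Of 35 methionine and sulfur genes 19 rose and 6 fell (median 0.27). MET8, for an enzyme of sirohaem synthesis, had 90.5, 98.2 and 90.3 CPM in Pcf11-OE1 and 95.7, 95.0 and 94.8 CPM in Pcf11-OE2, against 34.8, 33.5 and 42.4 CPM in Pcf11-AARR. Both overexpression strains were at one level, above all Pcf11-AARR libraries (1.35 ± 0.099, edgeR adjusted p = 2.1e-05). MET30, for an F-box protein that restrains the sulfur activator Met4, rose too (0.80). Of 22 multidrug transporter and regulator genes 10 rose and the other 12 were not called (median 0.27). They were led by PDR12, for a weak acid exporter (1.44), and FLR1, for a drug transporter (0.96).

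Core histone genes were lower: of 11 histone genes 6 fell and 2 rose (median -0.79), with equal counts without the third Pcf11-AARR library. HTA1, for histone H2A, gave 201, 148 and 170 CPM in Pcf11-OE1 and 145, 166 and 155 CPM in Pcf11-OE2, against 552, 489 and 328 CPM in Pcf11-AARR (log2 fold change -1.48, edgeR adjusted p = 8.23e-05). The groups did not overlap, and the third Pcf11-AARR library was again the nearest. HHO1, for the linker histone (0.71), and HHT2, for histone H3 (0.64, overlapped over 78.7% of its length), rose. Purine and pyrimidine synthesis genes gave 13 falls and 4 rises of 28 (median -0.26), with the salvage enzyme gene HPT1 at 28.1 to 52.1 CPM in the overexpression libraries and 107 to 151 CPM in Pcf11-AARR (-1.91) and URA10 at -1.44. Cell cycle and DNA replication genes gave 14 rises and 14 falls of 47.

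Genes specific to a mating type were more often higher than lower. Of 16 tested genes specific to a or alpha cells 9 rose and 2 fell (median 0.54). The a-factor gene MFA2 had 218, 120 and 189 CPM in Pcf11-OE1 and 277, 213 and 255 CPM in Pcf11-OE2, against 114, 104 and 72.2 CPM in Pcf11-AARR (1.11, edgeR adjusted p = 0.00181). The alpha-factor receptor gene STE2 rose by 0.55. STE3, the a-factor receptor gene of alpha cells, stayed at 5.62 to 10.04 CPM in the overexpression libraries and 7.43 to 8.16 CPM in Pcf11-AARR, with overlapping groups (-0.07, edgeR adjusted p = 0.746). Of the features annotated at the HMR and HML loci, HMRA1 (-1.19) and HMLALPHA2 (-0.36) fell and HMLALPHA1 rose (1.32). HMRA1 had 172 to 220 CPM in the overexpression libraries and 253 to 574 CPM in Pcf11-AARR, and which locus its reads came from was not tested. HMLALPHA1 was under 3 CPM in every library, and its call was lost without the second or the third Pcf11-AARR library (edgeR adjusted p = 0.0784 and 0.0653). Of 13 silencing genes 4 rose and 2 fell, SIR4 among those that rose.

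Of the remaining lists, cytosolic chaperones gave 13 rises and 6 falls of 37 (median 0.33), iron and copper uptake 13 and 12 of 36, thiamine and vitamin B6 8 and 4 of 25, peroxisomal fatty acid oxidation 6 and 2 of 27 (4 and 9 without those 2 overexpression libraries), and autophagy 7 and 3 of 32. Vacuolar proteases gave 4 and 2 of 15, pheromone response 8 and 7 of 31, amino acid biosynthesis under Gcn4 15 and 15 of 65, amino acid permeases 7 and 7 of 24, and nitrogen catabolite genes 8 and 10 of 30. More falls than rises were found for antioxidant enzymes (7 rises, 12 falls of 36), meiosis and sporulation (7 and 13 of 38) and phosphate starvation (4 and 9 of 29). These falls make up 33.3, 34.2 and 31.0% of the lists, not far above the 25.6% of all features. Ergosterol synthesis gave 6 and 6 of 29, ion pumps 2 and 2 of 15, subtelomeric families 5 and 6 of 21, auxotrophic markers 3 and 3 of 7, and formate oxidation 1 rise of 4. Of 16 listed mitochondrial genome genes 3 were tested and all fell, under the same limit of the filter on low counts. COX2 had 0 to 0.168 CPM in the overexpression libraries and 0.297 to 0.565 CPM in Pcf11-AARR. Its call was lost without the first or the third Pcf11-AARR library (edgeR adjusted p = 0.0665 and 0.0507). Of the 51 lists, 27 had more rises than falls, 18 more falls and 6 equal numbers.

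The 2 overexpression strains differed from each other in few genes, and most of these lie on one chromosome. Between Pcf11-OE1 and Pcf11-OE2, 83 of 6106 features were called (1.36%), 70 higher (1.15%) and 13 lower (0.213%) in Pcf11-OE1. Of the 83, 63 lie on chromosome I, all of them higher in Pcf11-OE1, out of 91 features tested there. The chromosome was singled out after the values were seen and its numbers are a description. The median log2 fold change over its features was 1.09 in Pcf11-OE1 and 0.12 in Pcf11-OE2 against Pcf11-AARR, and 0.97 between the 2 overexpression strains. The chromosome took 2.49, 2.58 and 2.81% of counts in Pcf11-OE1, 1.35, 1.26 and 1.26% in Pcf11-OE2 and 0.929, 0.954 and 1.10% in Pcf11-AARR. All 3 libraries of Pcf11-OE1 stood above the rest. Medians of the other nuclear chromosomes lay between -0.03 and 0.01 in the same difference. DNA was not analysed here, and whether Pcf11-OE1 carries a further copy of chromosome I was not tested.

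**Figure D5:**
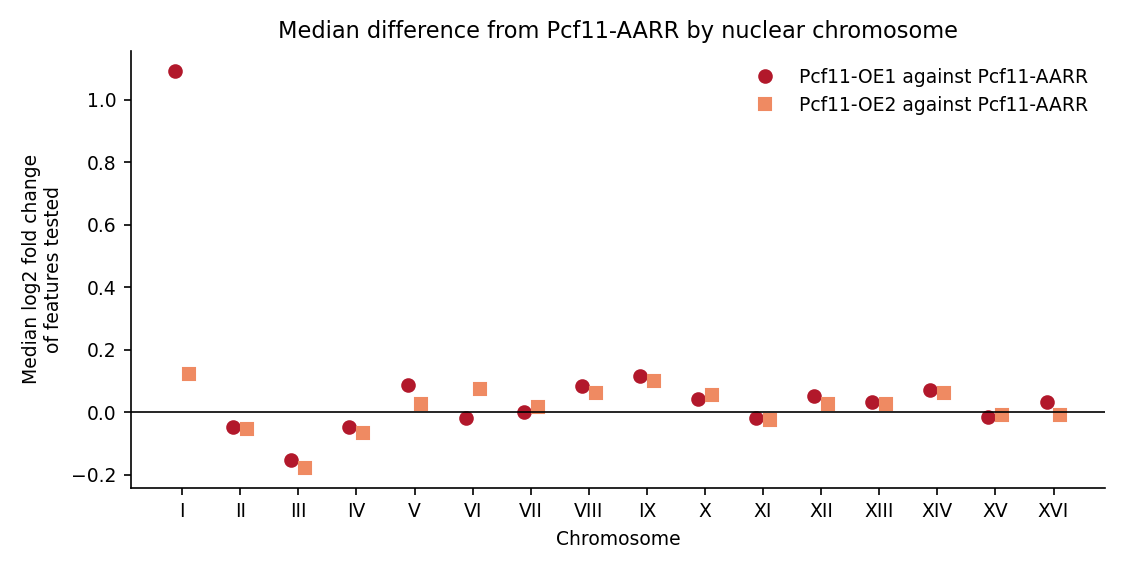
Median log2 fold change of the features of each chromosome against Pcf11-AARR, for Pcf11-OE1 and Pcf11-OE2. Chromosome I stands at 1.09 in Pcf11-OE1 and 0.12 in Pcf11-OE2, and the other nuclear chromosomes between -0.15 and 0.12 and between -0.18 and 0.10.

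Off chromosome I, 7 features were higher in Pcf11-OE1 than in Pcf11-OE2 and 13 lower. With chromosome I features left out of the fit, 4 of these 20 were called, all of them higher, and without the third library of Pcf11-OE2 5 were, 4 higher and 1 lower. All 20 kept their direction in both fits, and PCF11 and SIR4 were called in both. The lower ones in the fit of all features include FIT3, a cell wall siderophore protein gene of the iron regulon, at 33.2, 31.6 and 25.6 CPM in Pcf11-OE1 and 58.2, 65.0 and 80.04 CPM in Pcf11-OE2, beside 44.4, 27.3 and 31.6 CPM in Pcf11-AARR. The Pcf11-OE2 libraries were above those of the other 2 strains. The difference of FIT3 was -1.17 with an edgeR adjusted p of 0.013, and 0.106 without chromosome I features, and the gene was chosen after its values were seen. Joint values of chromosome I genes (YAT1, TDA8, FLO9, PTA1) average a Pcf11-OE1 and a Pcf11-OE2 value that differ by about the chromosome's own shift: YAT1 3.52 and 2.56, TDA8 2.38 and 1.39, FLO9 2.15 and 1.14, PTA1 1.49 and 0.30.

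The series also holds CLIP peaks, sites where RNA was crosslinked to precipitated Pcf11, from 2 IP libraries with 1332 and 1707 peaks as the authors called them. Of the genes tested, 321 had a sense peak in both. Of these, 94 rose and 72 fell in the overexpression strains against Pcf11-AARR, 51.7% called beside 52.6% of all features. Their median log2 fold change was 0.08, and their median level of 134 CPM was above the 60.4 CPM of all features.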

How the data were processed

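RNA-seq of 9 libraries was used, 3 for each of Pcf11-OE1, Pcf11-OE2 and Pcf11-AARR. The counts are the authors' deposited raw counts per feature, in one table for the overexpression strains (6943 features) and another for Pcf11-AARR (6863). Reads were trimmed with fastp 0.23.0, per the submitters' processing notes, and for aligner, counter and strand setting the sources used here give nothing. Percentages of mapped reads are values the authors deposited. The signal of the CLIP peaks, deposited by the authors, was not used beyond peak position.

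The tables were joined on feature identifier and 454 features without a name (0.87 to 1.08% of counts) were left out. The remaining 6409 were fitted for all 3 strains at once in edgeR 4.0.16 (R 4.3.3; TMM, filterByExpr, robust quasi-likelihood), which kept 6106, with Benjamini-Hochberg adjusted p at 0.05. The contrast was the mean of the overexpression strains minus Pcf11-AARR. The script was tested on simulated data. DESeq2 1.42.0 was an alternative. Named genes are the 12 highest (PCF11 among them) and 12 lowest called, standard-named genes whose higher group averaged 10 CPM or more, whose length was overlapped under 50% and whose groups stood apart, plus up to 2 called members at each end of a list. Other list members given in the text, RPC10, AIR1, REF2 and ICL1 among them, fall outside this rule. Members and all 51 lists were chosen with earlier results of these data known.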

Additional observations from a re-analysis of the deposited data

Results flagged for a closer look

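For 8 of the named genes the log2 fold changes of Pcf11-OE1 and of Pcf11-OE2 against Pcf11-AARR differed by the edgeR test of the difference between the 2 overexpression strains, and this difference (Pcf11-OE1 minus Pcf11-OE2, log2) is given for each. PCF11 differed by 2.95 (adjusted p = 3.76e-06) and its opposite-strand neighbour SIR4 by 0.98 (0.000567). On chromosome I, whose features had a median difference of 0.97, FUN12, for translation initiation factor eIF5B, differed by 1.27 (0.00307), PTA1 by 1.19 (0.00525), SWH1, for an oxysterol-binding protein homologue, by 1.15 (0.000313), the G1 cyclin gene CLN3 by 1.14 (0.000857) and ADE1, for a purine synthesis enzyme, by 0.85 (0.00656). SWH1 was higher than in Pcf11-AARR in Pcf11-OE1 (0.28) and lower in Pcf11-OE2 (-0.88). Off that chromosome the hexose transporter homologue HXT14 differed by -0.83 (0.049), a call lost without chromosome I features (0.182), with 3.73, 3.11 and 3.49 CPM in Pcf11-OE1 and 6.74, 6.41 and 5.29 CPM in Pcf11-OE2, beside 8.67, 9.15 and 6.46 CPM in Pcf11-AARR.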

How the results depend on the processing

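PCF11 kept its call under each alternative run, with a log2 fold change of 3.26 to 3.35 when 1 library was left out and 3.97 ± 0.909 (SE, adjusted p = 0.00414) when both overexpression strains were fitted as 1 group. Of 213 other named genes 208 were called, 188 of these stayed called under every alternative and no called one changed direction, and all 24 genes at the 2 ends, PCF11 included, kept their calls. With the block 2 called named genes were lost, CLP1 (0.0703) and MET17 (0.0502). Features that rose numbered 1744 and fell 1734 with DESeq2, 1582 and 1622 with RLE scaling, 1501 and 1470 with the replicate block, and 1273 and 1205 among features overlapped over less than 50% of their length. With 1 library left out the counts ran from 1071 to 1686 for rises and 1213 to 1630 for falls, from 965 to 1586 and 1050 to 1486 in Pcf11-OE1 alone, and from 874 to 1401 and 968 to 1519 in Pcf11-OE2 alone. The numbers lowest for rises were those without the second Pcf11-AARR library. Between the overexpression strains, features lower in Pcf11-OE1 numbered 49 with DESeq2, 6 with the replicate block, 5 with only the contrast libraries and 0 without chromosome I features, where 4 were higher, and 1 to 15 with 1 library left out (49 to 72 higher). Deviations of same-numbered libraries from their strain means correlated at -0.377 to 0.472 (the third of Pcf11-OE1 and the first of Pcf11-OE2 at 0.759). With 3 libraries per strain the deviations depend on each other, so this cannot decide whether the numbers pair samples. Leaving out rDNA or chromosome I features or these 2 libraries was chosen after seeing the data. Genes low in counts, such as those of the mitochondrial genome, are limited by depth.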
